A study of Mus musculus with 22 samples.

Results

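The solute carriers of inorganic ions and zinc were examined in the adult mouse choroid plexus (ChP), the epithelium that secretes cerebrospinal fluid into the brain ventricles. They were chosen by symbol, as the protein-coding genes of the families Slc4, Slc8, Slc9, Slc10, Slc12, Slc13, Slc20, Slc24, Slc26, Slc30, Slc34, Slc39 and Slc41, without the 5 carriers *Slc4a2*, *Slc4a4*, *Slc4a5*, *Slc4a10* and *Slc12a2*. This gave 89 genes of the 33984 genes in the files and of their 369 protein-coding Slc genes, and all 89 had counts. Of these, 3 match the rule by symbol alone and carry no ion, namely *Slc4a1ap* and the scaffold genes *Slc9a3r1* and *Slc9a3r2*.

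RNA was sequenced in 14 pools of mice, 2 pools (A and B) for each of 7 groups. In the conditional model, 3-month-old Otx2 lox/lox mice of strain S129 received an intracerebroventricular injection of Cre-Tat, a Cre recombinase that enters cells, or of vehicle, and the ChP of the lateral ventricles (LV) and of the fourth ventricle (4V) were dissected apart 15 days later. Every mouse of this model carried the floxed alleles, pools held 5 Cre-Tat or 4 vehicle mice, and no promoter limits where the recombinase acts. As the methods read, LV and 4V ChP were taken from the same injected mice, so LV and 4V pools are not separate sets of mice. The main tests between ventricles, and that of the interaction with ventricle, nevertheless treated these pools as independent. In the constitutive model, of strain B6D2, 4V ChP came from wildtype (WT) mice and from mice labelled Otx2+/- or Otx2+/AA. The methods describe the Otx2+/- mice as Otx2+/GFP mice, 3 months old, pooled from 4 mutants and 5 wildtype littermates, and the AA allele is not described in the sources used here. Strain, model and sequencing run changed together and cannot be told apart.

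The ChP epithelium moves sodium, chloride and bicarbonate from blood to cerebrospinal fluid, and also sets the magnesium, calcium, phosphate, sulfate and trace metal content of that fluid. Among the families described here, the Slc12 cotransporters couple chloride to potassium or sodium, the Slc26 proteins exchange anions, and the Slc24 proteins extrude calcium in exchange for sodium while carrying potassium. Slc30 proteins (ZnT) move zinc out of the cytosol and Slc39 proteins (ZIP) move it in. OTX2, the homeoprotein manipulated in both models, is a transcription factor required for ChP development.

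Pools held between 22750019 and 50088408 counts over all transcripts. Of the 16 conditional files, 14 carry a library number that belongs to another pool than their sample record, and pools were assembled by library number. Assembled in this way, the 2 runs of each pool differed by no more than sampling noise. The targeted gene had more counts in the pools with a knockdown label. *Otx2* was at 386 and 470 CPM (counts scaled to the normalised size of each library) in the vehicle LV pools against 1236 and 1025 CPM in the Cre-Tat LV pools, and at 386 and 393 against 1202 and 1222 CPM in 4V. It was at 361 and 303 CPM in wildtype, 1027 and 886 CPM in Otx2+/-, and 339 and 357 CPM in Otx2+/AA pools. All 8 annotated *Otx2* transcripts in the files were higher in Cre-Tat than in vehicle pools of both ventricles, and 7 of 8 were higher in Otx2+/- than in wildtype pools. The remaining one, a processed transcript of 737 bases, was at 65.5 and 54.7 CPM in wildtype and 47.4 and 35.6 CPM in Otx2+/- pools. Transcripts of the same gene can share exons and reads, so these are not separate measurements. The study tested a small sample of each conditional ChP by qPCR for lower *Otx2* after Cre-Tat, and it lists *Otx2* as lower in both models. In its sequencing data it followed the deletion by the reads of a single exon. Counts per transcript give no separate value for that exon, so they neither show nor contradict its loss, and group names here are those of the labels. All 9 markers of ChP epithelium, *Ttr* and *Kl* among them, were abundant in every pool. Their summed level was 222010 to 231288 CPM in vehicle LV and 184896 to 218483 CPM in vehicle 4V pools, but 122998 to 164408 CPM and 86668 to 97906 CPM in the Cre-Tat pools. It was 188968 to 199784 CPM in wildtype, 125150 to 132952 CPM in Otx2+/- and 154760 to 157996 CPM in Otx2+/AA pools. Most of each sum was *Ttr*, at 139112 to 147829 CPM in wildtype and 76415 to 89895 CPM in Otx2+/- pools. Without it, the 8 other markers summed to 49856 to 51955 CPM in wildtype, 43057 to 48735 CPM in Otx2+/- and 42040 to 45258 CPM in Otx2+/AA pools. In the conditional model they summed to 44357 to 45867 CPM against 28329 to 29869 CPM in LV, and to 46168 to 50295 CPM against 24063 to 25551 CPM in 4V. Most of each of these sums was *Enpp2*, at 43564.5 and 42278.1 CPM in wildtype and 41952.4 and 37119.3 CPM in Otx2+/- pools. The other markers did not all move alike between wildtype and Otx2+/- pools. *Prlr* was at 1515 and 1094 against 593 and 326 CPM, but *Kcne2* was at 1279 and 1320 against 1350 and 1459 CPM. In bulk RNA, fewer cells of a type and less RNA per cell cannot be told apart, and 4 of the 9 markers were lower in Cre-Tat LV, all 9 in Cre-Tat 4V, 3 in Otx2+/- and none in Otx2+/AA pools, with median log2 fold changes of -0.66, -0.93, -0.31 and -0.17. The part that this shift has in the differences below was not tested.

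Levels between genes were compared per kilobase of transcript (CPM per kb), as means over the 6 vehicle and wildtype pools. The sulfate carrier *Slc13a4* was the highest member, at 199.8 CPM per kb, with pools between 139.8 and 233.3. The zinc importer *Slc39a12* (ZIP12) followed at 106.6 CPM per kb, with pools between 91.4 and 130.4. The exchanger *Slc24a5* (NCKX5), known for its role in pigment cells, had a mean of 87.0 CPM per kb, but its pools ran from 19.1 to 166.1, so that its place in the order depends on ventricle and model. The next members lay close together. They were the zinc importer *Slc39a7* (ZIP7), which releases zinc from the endoplasmic reticulum, at 54.3, the exporter *Slc30a5* (ZnT5) at 48.3, the potassium-chloride cotransporter *Slc12a4* (KCC1) at 41.1, the phosphate carrier *Slc20a2* (PiT2) at 35.4 and the zinc importer *Slc39a13* (ZIP13) at 28.1 CPM per kb. The pool ranges of *Slc39a7* (44.9 to 61.1) and *Slc30a5* (45.7 to 50.8) overlapped, as did those of *Slc30a5* and *Slc12a4* (36.6 to 46.8). Reads of *Slc39a7* are uncertain, since 85.5% of its representative transcript lies in exons of the readthrough gene *Gm20427* on the same strand. That transcript is also annotated as a retained intron form, so its level need not be that of a protein-coding transcript.

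Zinc carriers made up 4 of these 8 genes. A mean level of at least 1 CPM per kb was reached by 11 of 14 zinc importers and 6 of 10 zinc exporters, by 5 of 9 sodium-proton exchangers, by 4 of 8 cation-chloride cotransporters, and by 3 of 11 anion exchangers. In all, 45 of 89 members reached it. At the low end, 17 members had at most 3 counts in every pool, among them all 3 sodium-phosphate cotransporters of the Slc34 family, 4 of 7 bile acid carriers of the Slc10 family, and *Slc12a3*, the thiazide-sensitive cotransporter of the kidney. A count of that size says that these genes were not detectable beyond it at this depth. The filter on low counts passed 60 members in all 5 comparisons, 4 in some of them and 25 in none.

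**Figure D1:**
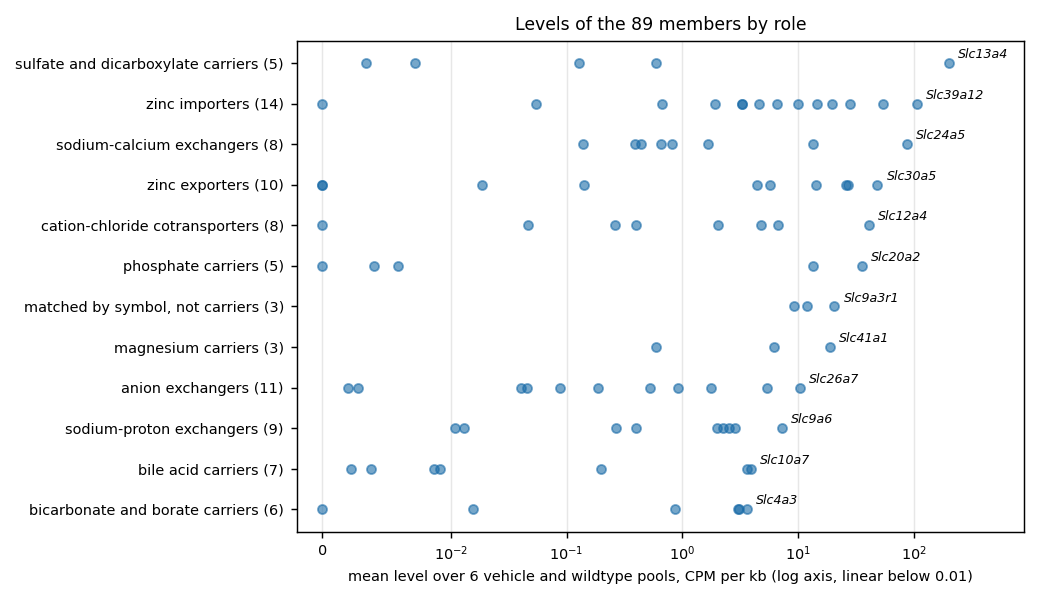
Mean level of each of the 89 members over the 6 vehicle and wildtype pools, in CPM per kb on a log axis that is linear below 0.01, by role, with the number of members in brackets and the highest member of each role named. *Slc13a4*, at 199.8, and *Slc39a12*, at 106.6, lie highest, while each role except the genes that are not carriers has members below 1.

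Promoter sequence is shown for the 3 exchangers of the Slc24 family that were called lower in a comparison of 4V ChP with control pools and for *Slc39a12*, the zinc importer with the highest level, which was also called lower. OTX2 is known to bind the letters TAATCC, which read GGATTA on the other strand, and these were searched on both strands in the 250 bases before the RefSeq start (GRCm38.p6). Of 32851 such windows, 6.25% held them. The members had 86 windows, from 70 genes, and 9 windows (10.5%) held the letters, each in another gene. Among these genes were 2 of the 11 members that were called against control pools and had a window, *Slc24a4* and *Slc39a12*. The window of *Slc24a4* is on chr12:102128477-102128726 (plus strand), with the letters in capitals beginning 171 bases before the start. Those of *Slc24a1* on chr9:64951621-64951870 (minus strand) and of *Slc24a5* on chr2:125067877-125068123 (plus strand, cut at the annotated gene) held no match. For *Slc39a12* the 30 bases around the match on chr2:14388361-14388390 (plus strand) are shown, which lie inside the gene as GENCODE annotates it. A match is a description of these letters and not a site.
Slc24a4: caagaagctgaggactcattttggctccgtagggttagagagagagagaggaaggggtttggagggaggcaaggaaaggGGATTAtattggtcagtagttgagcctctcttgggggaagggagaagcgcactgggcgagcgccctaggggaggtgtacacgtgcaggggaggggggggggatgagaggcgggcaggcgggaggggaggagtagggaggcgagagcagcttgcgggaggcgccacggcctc
Slc24a1: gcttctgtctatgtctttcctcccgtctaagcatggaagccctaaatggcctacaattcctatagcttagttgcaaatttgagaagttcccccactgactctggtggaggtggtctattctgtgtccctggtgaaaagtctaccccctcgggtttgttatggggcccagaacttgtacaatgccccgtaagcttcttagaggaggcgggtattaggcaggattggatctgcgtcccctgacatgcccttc
Slc24a5: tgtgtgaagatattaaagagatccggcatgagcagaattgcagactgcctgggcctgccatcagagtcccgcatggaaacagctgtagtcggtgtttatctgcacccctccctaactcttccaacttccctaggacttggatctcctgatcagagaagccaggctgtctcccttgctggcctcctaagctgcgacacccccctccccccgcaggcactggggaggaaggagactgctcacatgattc
Slc39a12: tctgggctgaaaTAATCCtctccagctctc

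In LV ChP, the Cre-Tat pools differed from the vehicle pools in few members. Of 62 members tested, 1 was higher and 2 were lower (edgeR quasi-likelihood test, Benjamini-Hochberg adjusted p under 0.05), where 2.21% of all 15002 genes tested were higher and 1.03% lower. In 4V ChP, 2 of 61 members were higher and 9 were lower, which is 3.28% and 14.8% of the members, where 5.7% of all 14550 genes tested were higher and 4.98% lower. The median log2 fold change of the members was -0.12 in LV and -0.22 in 4V, and that of all genes was 0.00 and 0.01. When pools were scaled by their total counts instead, the median of all genes moved to 0.16 and 0.15 and that of the members to 0.03 and -0.08, and the 4V calls split into 4 higher and 6 lower, where 9.82% of all genes were then higher and 3.07% lower. Without vehicle 4V pool A, 5 members were called in place of 11, and 5.96% of all genes in place of 10.7%. The LV count was 5 without Cre-Tat LV pool A and 7 without Cre-Tat LV pool B, with 2.95% and 4.76% of all genes called.

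The anion exchanger *Slc26a7*, a chloride and bicarbonate carrier of kidney, stomach and thyroid on chr4:14502430-14621805 (mm10, minus strand), was the member that fell most in both ventricles. It was at 74.5 and 78.6 CPM in vehicle LV and 27.9 and 21.2 CPM in Cre-Tat LV pools. In 4V it was at 54.9 and 57.0 CPM against 18.1 and 17.6 CPM. All Cre-Tat pools therefore lay far below all vehicle pools. The log2 fold changes were -1.64 ± 0.18 (SE, adjusted p = 0.00013) in LV and -1.64 ± 0.14 (adjusted p = 4.5e-07) in 4V, or 3.11-fold and 3.13-fold lower. The other 4 anion exchangers tested had values below 0 in both ventricles (3 of 4 in 4V when pools were scaled by total counts), but none of them passed the threshold.

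Magnesium carriers moved in opposite directions. *Slc41a2*, on chr10:83230848-83337882, was at 35.9 and 39.5 CPM in vehicle LV and 22.0 and 21.0 CPM in Cre-Tat LV pools, a log2 fold change of -0.81 ± 0.16 (adjusted p = 0.015). In 4V it was at 26.6 and 21.2 CPM against 14.9 and 13.6 CPM, a log2 fold change of -0.75 ± 0.17 (adjusted p = 0.0085). These calls were lost without vehicle LV pool B (adjusted p = 0.11) and without vehicle 4V pool A (adjusted p = 0.14). *Slc41a1*, the family's highest member per length (18.7 CPM per kb against 6.20 for *Slc41a2*), was at 99.0 and 93.7 CPM in vehicle 4V pools and rose to 155.9 and 163.2 CPM in Cre-Tat 4V pools (log2 fold change 0.73 ± 0.13, adjusted p = 0.0012). Its LV pools did not overlap either, at 94.1 and 92.5 against 115.9 and 127.3 CPM, but the difference of 0.38 ± 0.16 missed the threshold (adjusted p = 0.26).

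Of the 5 potassium-dependent sodium-calcium exchangers tested in 4V, 2 fell and the others were not called, where 4.98% of all genes tested were lower. *Slc24a4* (NCKX4), known from tooth enamel and olfactory neurons and the one exchanger shown above with the letters TAATCC in its window, was at 68.7 and 71.2 CPM in vehicle 4V and 29.6 and 40.9 CPM in Cre-Tat 4V pools (log2 fold change -0.99 ± 0.15, adjusted p = 0.00030). *Slc24a5* was at 184.6 and 125.2 CPM against 81.7 and 69.2 CPM (log2 fold change -1.04 ± 0.17, adjusted p = 0.00051). The vehicle pools of *Slc24a5* were far apart, but both lay above the Cre-Tat pools. Of its representative transcript, 47.1% overlaps *Myef2* on the other strand, and the counts are not stated to use strand; *Myef2* itself was at 37.2 to 45.4 CPM in these 4 pools. In LV, neither exchanger passed the threshold (adjusted p = 0.23 for *Slc24a4* and 0.058 for *Slc24a5*).

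The exchanger *Slc24a2* (NCKX2), a gene of neurons and cones, was the single member that rose in LV. It was low throughout, at 1.43 and 2.84 CPM in vehicle LV pools and 6.83 and 4.95 CPM in Cre-Tat LV pools (log2 fold change 1.47 ± 0.33, adjusted p = 0.026). The call was lost without Cre-Tat LV pool A (adjusted p = 0.12) or without vehicle LV pool A (adjusted p = 0.12). The sum over 7 neuronal markers was 17.7 to 17.8 CPM in vehicle LV and 21.7 to 26.3 CPM in Cre-Tat LV pools. Of the 6 markers tested, 2 were called higher and 0 lower, but they did not all move alike. *Syt1*, the highest of them in vehicle LV pools, was at 11.6 and 12.9 CPM there and at 9.92 and 9.73 CPM in Cre-Tat LV pools. The part of these markers in the rise of *Slc24a2* was not tested.

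Zinc importers and exporters both had members that fell in 4V ChP. The importer *Slc39a12* was at 287.7 and 253.0 CPM in vehicle 4V and 188.9 and 173.4 CPM in Cre-Tat 4V pools (log2 fold change -0.57 ± 0.14, adjusted p = 0.012). The exporter *Slc30a4* (ZnT4), which supplies zinc to milk in the mammary gland, was at 122.9 and 136.3 CPM against 85.7 and 78.3 CPM (log2 fold change -0.65 ± 0.13, adjusted p = 0.0036). *Slc30a5*, which loads zinc into the secretory pathway, was at 157.9 and 145.3 CPM against 103.1 and 103.8 CPM (log2 fold change -0.55 ± 0.13, adjusted p = 0.011). In these 3 genes no Cre-Tat 4V pool reached a vehicle 4V pool. The importer *Slc39a4* (ZIP4), the zinc uptake carrier of the intestine, was at 35.9 and 25.8 CPM against 22.7 and 19.1 CPM, and its call was close to the threshold (log2 fold change -0.56 ± 0.18, adjusted p = 0.048). DESeq2 did not call it (adjusted p = 0.10), nor did the test without vehicle 4V pool A (adjusted p = 0.62). Without that pool *Slc39a12* (adjusted p = 0.22) and *Slc30a5* (adjusted p = 0.18) were not called either, and scaling by total counts left these 3 genes above the threshold (adjusted p = 0.057 to 0.12).

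Of 12 zinc importers tested, 2 were lower in 4V and none was higher, and of 7 zinc exporters tested, 2 were lower and none was higher. Of all genes tested in 4V, 4.98% were lower and 5.7% higher. By edgeR no zinc carrier passed the threshold in LV, where the lowest adjusted p was 0.12 among exporters and 0.19 among importers. The LV values lay below 0 in 6 of 7 exporters and 10 of 12 importers, but in 3 and 6 of them under scaling by total counts. The median log2 fold change in 4V was -0.30 for exporters and -0.26 for importers, beside 0.01 for all genes, and it was -0.15 and -0.11, beside 0.15, under total counts.

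A phosphate carrier was also lower in Cre-Tat 4V pools. The sodium-dependent carrier *Slc20a1* (PiT1) was at 51.6 and 43.4 CPM in vehicle and 30.8 and 30.8 CPM in Cre-Tat 4V pools (log2 fold change -0.62 ± 0.14, adjusted p = 0.0075), and its call was lost without vehicle 4V pool A (adjusted p = 0.17). Macrophage markers summed to 49.3 to 52.9 CPM in vehicle and 81.3 to 107 CPM in Cre-Tat 4V pools, with 6 of 8 tested higher. Ependymal markers summed to 131 to 163 and 266 to 278 CPM, with 2 of 4 tested higher. Most of the ependymal sum was *Foxj1*, at 101.5 and 85.3 against 179.4 and 189.0 CPM. The pools of *Rarres2* overlapped, at 19.9 and 14.2 against 26.5 and 15.8 CPM. The part of both sets of markers in the rise of *Slc41a1* was not tested. No cation-chloride cotransporter passed in either ventricle by edgeR, and *Slc12a4* was at 151.6 and 148.4 CPM in vehicle 4V and 161.7 and 169.7 CPM in Cre-Tat 4V pools. The highest member, *Slc13a4*, had log2 fold changes of -0.39 ± 0.17 in LV (adjusted p = 0.30) and -0.21 ± 0.15 in 4V (adjusted p = 0.48).

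**Figure D2:**
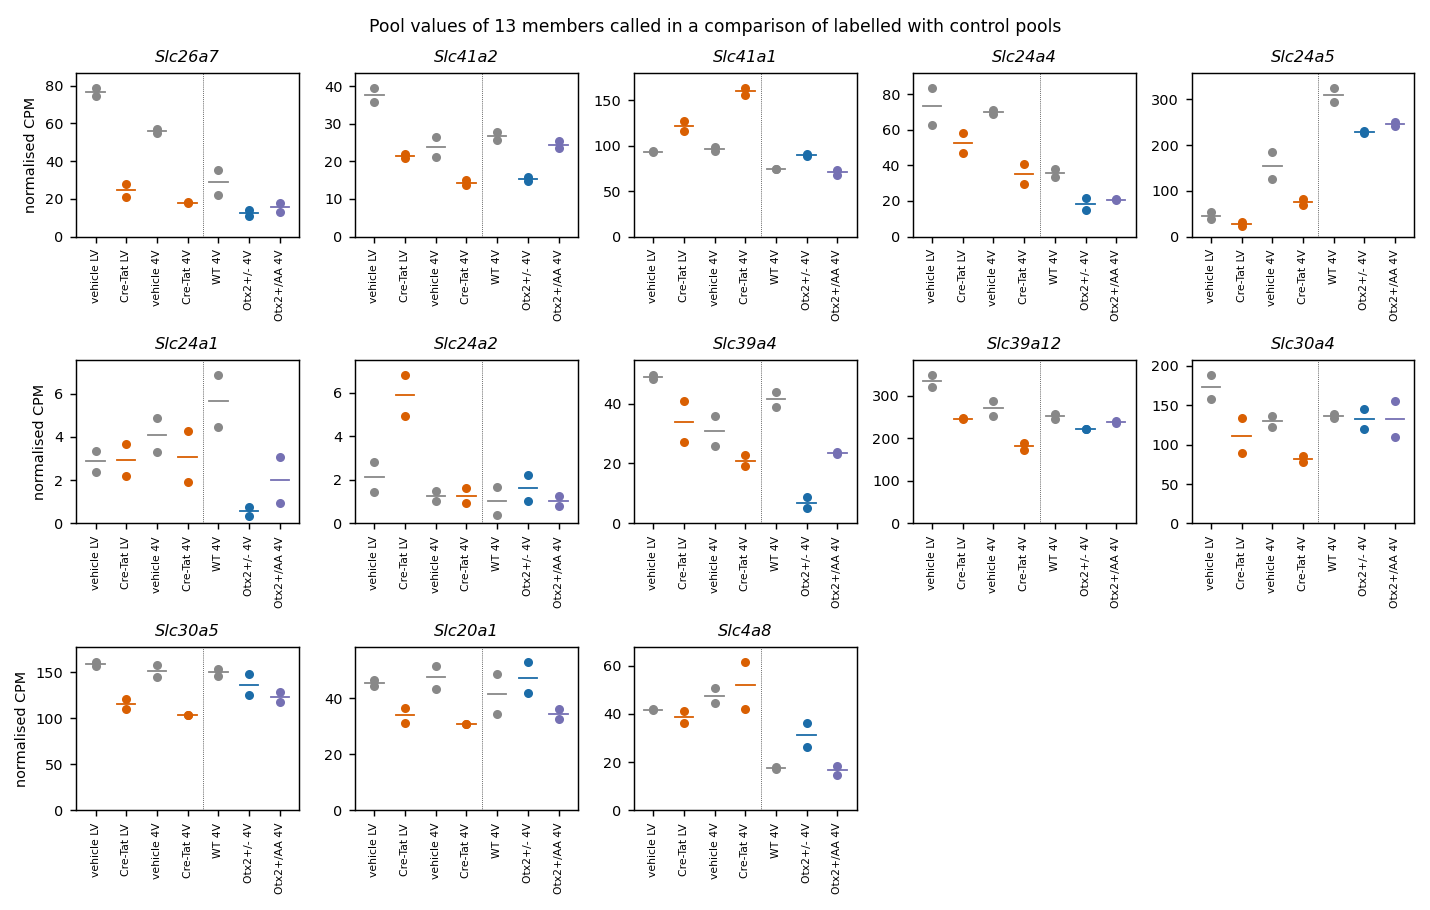
Normalised CPM of 13 members called in at least 1 comparison of labelled with control pools, for each of the 14 pools (points) with the mean of each group (lines); the dotted line separates the conditional from the constitutive model. *Slc26a7* is lower in all Cre-Tat pools than in all vehicle pools, and *Slc39a4* is lowest in the Otx2+/- pools, at 5.10 and 8.68 CPM.

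Members' responses were not shown to differ between ventricles. In the interaction of treatment with ventricle, edgeR called 0 of 64 members, with 1 member at an unadjusted p under 0.05, and DESeq2 also called 0, where 0.00642% of all 15565 genes were called by edgeR. The lowest unadjusted p values belonged to *Slc24a2* (LV minus 4V difference of 1.43 ± 0.58 in log2 fold change), *Slc10a6* (2.50 ± 1.21) and *Slc24a4* (0.51 ± 0.26), all with an adjusted p of 1.00. For *Slc26a7* the difference was 0.01 ± 0.21.

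In the constitutive model, 1 of 62 members was higher and 5 were lower in Otx2+/- than in wildtype 4V ChP, or 1.61% and 8.06% of the members, where 1.78% of all 14573 genes were higher and 1.75% lower. The median log2 fold change was -0.07 for members and 0.00 for all genes. The falls with the most negative values were those of a zinc importer and a calcium exchanger. The importer *Slc39a4*, on chr15:76612383-76617384, was at 38.7 and 44.0 CPM in wildtype and 5.10 and 8.68 CPM in Otx2+/- pools. This was 6.00-fold lower (log2 fold change -2.58 ± 0.23, adjusted p = 0.00080).

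The exchanger *Slc24a1* (NCKX1), known from rod photoreceptors, was at 4.44 and 6.86 CPM in wildtype and 0.757 and 0.360 CPM in Otx2+/- pools, or 85 and 122 against 15 and 7 counts. The log2 fold change was -3.32 ± 0.41 (adjusted p = 0.0035). It was low in every pool of the study, with 4.89 CPM as its highest value in the conditional model. *Slc24a4* was at 37.8 and 33.5 CPM in wildtype and 21.8 and 14.95 CPM in Otx2+/- pools (log2 fold change -0.95 ± 0.19, adjusted p = 0.029). *Slc24a5* missed the threshold (324.6 and 294.4 against 230.7 and 226.2 CPM, adjusted p = 0.087), although its pools did not overlap.

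*Slc26a7* and *Slc41a2* fell in this model too. *Slc26a7* was at 35.3 and 22.2 CPM in wildtype and 13.9 and 10.6 CPM in Otx2+/- pools (log2 fold change -1.23 ± 0.23, adjusted p = 0.027), a call that was lost when counts were summed over transcripts (adjusted p = 0.064). *Slc41a2* was at 25.6 and 27.7 CPM against 14.9 and 15.8 CPM (log2 fold change -0.80 ± 0.14, adjusted p = 0.018). The one member that rose was *Slc4a8* (NDCBE), a sodium-driven chloride and bicarbonate exchanger of neurons, at 17.0 and 17.9 CPM in wildtype and 36.1 and 26.4 CPM in Otx2+/- pools (log2 fold change 0.84 ± 0.17, adjusted p = 0.036). It was not called without Otx2+/- pool A (adjusted p = 0.12). That pool also held *Dct* at 73.7 CPM, a pigment cell gene that was at 3.65 to 13.3 CPM in the 13 other pools and was looked up after its values were seen. Of the pigment cell genes looked up with it, *Tyr* (5.75 CPM), *Slc45a2* (3.63), *Tyrp1* (2.37) and *Mlana* (1.92) were also highest in that pool. *Pmel*, at 0.454 CPM there, was not. In the same comparison the fibroblast markers summed to 726 to 799 CPM in wildtype and 1005 to 1108 CPM in Otx2+/- pools, with 2 of 6 tested higher, and the neuron markers to 8.20 to 13.7 and 6.92 to 12.3 CPM.

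**Figure D3:**
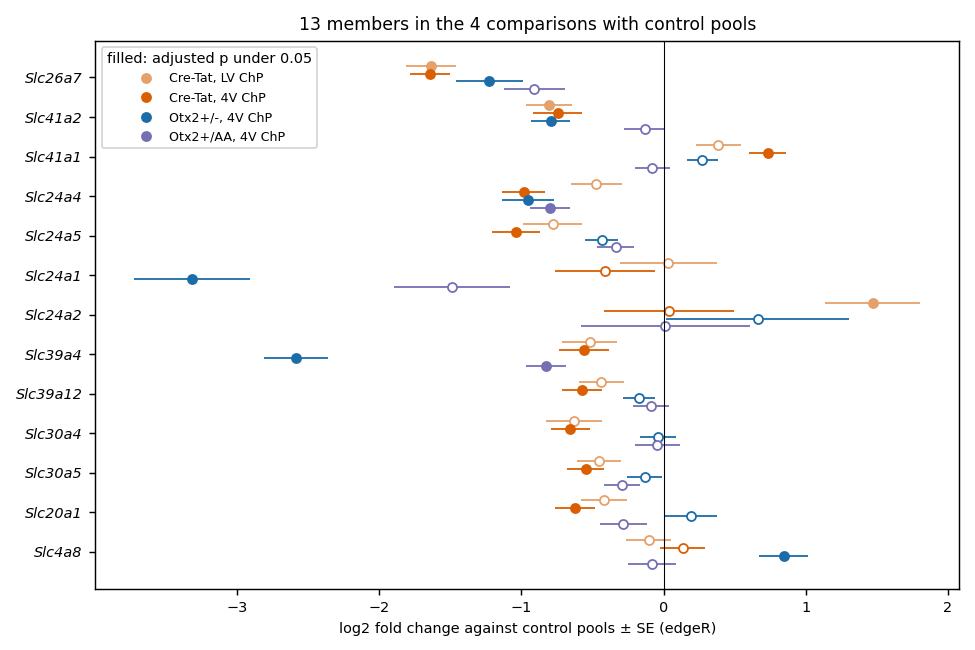
Log2 fold change ± SE (edgeR) of the same 13 members in the 4 comparisons with control pools; filled points have an adjusted p under 0.05. *Slc26a7* lies between -1.64 and -0.91 in all 4 comparisons, while *Slc24a1* and *Slc39a4* reach -3.32 and -2.58 in Otx2+/- ChP.

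In Otx2+/AA against wildtype 4V ChP, 2 of 62 members were lower and none was higher by edgeR, where 0.172% of all 14494 genes were higher and 0.172% lower. Unadjusted p values under 0.05 were found for 9 members and for 1292 of all genes tested. DESeq2 called 3 members, all lower, beside 0.842% of all genes. *Slc39a4* was at 23.0 and 23.9 CPM in Otx2+/AA pools, below both wildtype pools and above both Otx2+/- pools (log2 fold change against wildtype -0.83 ± 0.14, adjusted p = 0.028). *Slc24a4* was at 20.9 and 20.3 CPM (log2 fold change -0.80 ± 0.14, adjusted p = 0.036). Both calls are fragile, since 0 were left when all pools of the run were fitted together, *Slc39a4* was lost without Otx2+/AA pool A (adjusted p = 0.079), and *Slc24a4* was lost without either Otx2+/AA pool (adjusted p = 0.079 and 0.058) and without wildtype pool A (adjusted p = 0.056). *Slc26a7* was at 17.7 and 13.1 CPM and missed the threshold (log2 fold change -0.91 ± 0.22, adjusted p = 0.11). This comparison shares its wildtype pools with that of Otx2+/-.

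The Cre-Tat and Otx2+/- comparisons of 4V ChP share no pool. The members called in both were *Slc26a7*, *Slc24a4*, *Slc41a2* and *Slc39a4*, all 4 lower in both, which is 36.4% of the 11 members called with Cre-Tat and 66.7% of the 6 called with Otx2+/-. Among all genes, 247 were called in both, 15.9% and 48.0% of the lists, and 236 of them moved in the same direction. The members' shares rest in part on calls that did not hold throughout, since the Cre-Tat call of *Slc39a4* was kept in 5 of 13 alternatives, that of *Slc41a2* in 11 of 13 and the Otx2+/- call of *Slc26a7* in 11 of 12. The size of the change differed between models for 2 members. In the interaction of label with model, 2 of 63 members were called, where 1.64% of all 15327 genes were called. *Slc39a4* fell less with Cre-Tat than in Otx2+/- ChP, by a difference of 2.01 ± 0.31 in log2 fold change (adjusted p = 0.0053). *Slc24a1* differed by 2.89 ± 0.62 (adjusted p = 0.034), with a change of -0.41 ± 0.35 with Cre-Tat, and this call was lost without any of 5 single pools (adjusted p = 0.083 to 0.15). The third in order was *Slc30a4*, with a difference of -0.63 ± 0.18 that missed the threshold (adjusted p = 0.13). For *Slc24a4* and *Slc41a2* the differences were -0.04 ± 0.26 and 0.04 ± 0.21.

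**Figure D4:**
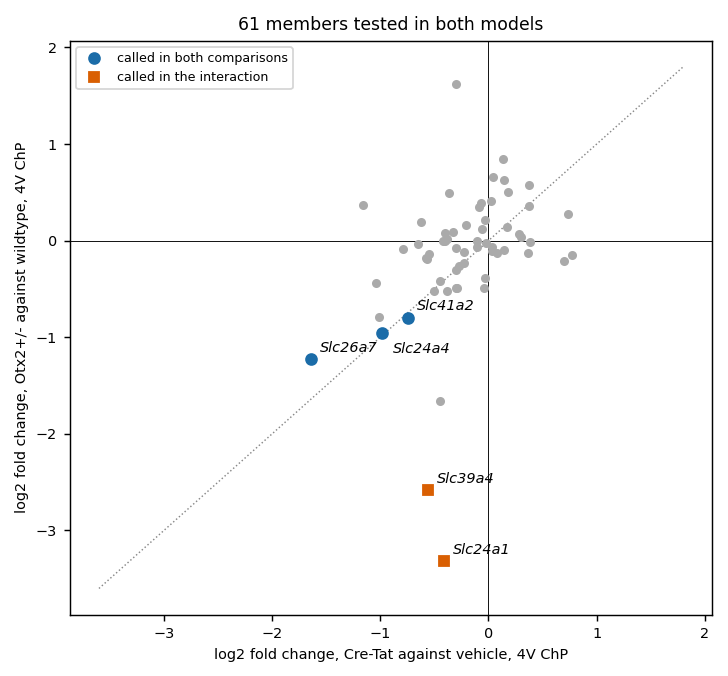
Log2 fold change of the 61 members tested in both models in 4V ChP, with Cre-Tat against vehicle on the horizontal and Otx2+/- against wildtype on the vertical axis; the dotted line marks equal change. *Slc26a7*, *Slc24a4* and *Slc41a2* lie near the line, and *Slc39a4* and *Slc24a1* lie far below it.

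Members also differed between the ventricles of vehicle mice. In these pools, 4 of 63 members were higher in LV and 4 were higher in 4V ChP, where 3.46% of all 14561 genes were higher in LV and 3.98% lower. The 4V ChP had more *Slc24a5*, at 184.6 and 125.2 CPM against 53.8 and 37.4 CPM in LV (log2 fold change of LV against 4V -1.77 ± 0.20, adjusted p = 0.00011). It also had more *Slc9a2* (NHE2), a sodium-proton exchanger of epithelia, at 2.52 and 2.12 CPM against 0.287 and 0.448 CPM, from 34 and 23 counts against 6 and 9 (log2 fold change -2.65 ± 0.50, adjusted p = 0.0058). The anion exchanger *Slc4a3* (AE3), at 31.6 and 36.2 against 23.3 and 16.9 CPM (adjusted p = 0.015), and the scaffold *Slc9a3r1* (NHERF1), at 47.5 and 44.2 against 29.0 and 25.7 CPM (adjusted p = 0.0038), were higher in 4V as well. The pools of the ventricles did not overlap in any of these 4 genes. *Slc9a2* was not called without vehicle 4V pool A (adjusted p = 0.083), and *Slc4a3* was not called without vehicle 4V pool B (adjusted p = 0.13) or vehicle LV pool B (adjusted p = 0.079).

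Zinc importers were among the members higher in LV. *Slc39a10* (ZIP10) was at 23.0 and 22.8 CPM in LV and 12.4 and 13.1 CPM in 4V (log2 fold change 0.84 ± 0.15, adjusted p = 0.0038). *Slc39a4* was at 49.5 and 48.0 against 35.9 and 25.8 CPM (adjusted p = 0.022), and *Slc41a2* at 35.9 and 39.5 against 26.6 and 21.2 CPM (adjusted p = 0.016). *Slc26a7* was at 74.5 and 78.6 against 54.9 and 57.0 CPM, a smaller difference of 0.45 ± 0.11 (adjusted p = 0.032). Without vehicle 4V pool B, 4 members were called in place of 8 (2.60% of all genes in place of 7.44%), and *Slc39a4* (adjusted p = 0.22), *Slc41a2* (adjusted p = 0.17) and *Slc26a7* (adjusted p = 0.15) were not among them. The call of *Slc26a7* was also lost without vehicle 4V pool A (adjusted p = 0.14) and without vehicle LV pool B (adjusted p = 0.11). Of 7 endothelial markers tested, 3 were also higher in LV, with sums of 225 to 267 CPM in LV and 151 to 169 CPM in 4V, and their part in these differences was not tested.

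**Figure D5:**
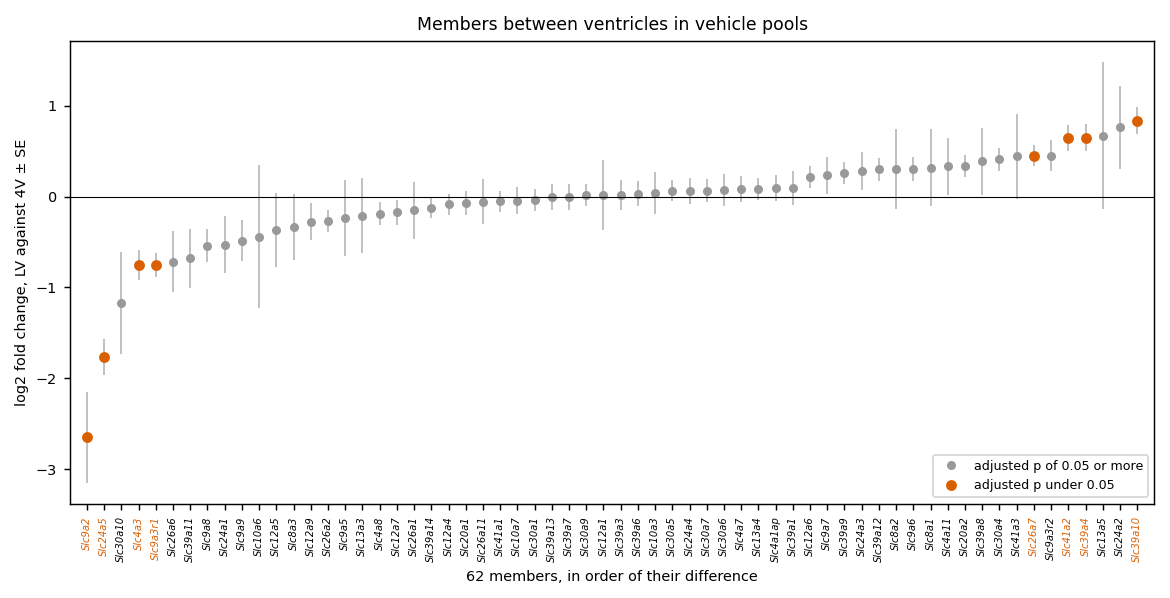
Log2 fold change ± SE of LV against 4V in vehicle pools for 62 of the 63 members tested, in order of their difference, with called members in orange. *Slc9a2* (-2.65) and *Slc24a5* (-1.77) lie lowest and *Slc39a10* (0.84) highest among them.

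Genes that work with these carriers were counted in 5 lists. The shares of all genes called in each comparison, given above, are the background for these counts. Among 6 tested genes of zinc handling, the metallothioneins *Mt1* and *Mt2*, which bind zinc and respond to it, rose with Cre-Tat in both ventricles, and none was lower. *Mt1* was at 34.8 and 32.4 CPM in vehicle and 111.7 and 104.8 CPM in Cre-Tat 4V pools (log2 fold change 1.69 ± 0.14, adjusted p = 2.3e-07). *Mt2* was at 8.45 and 7.20 against 37.8 and 47.9 CPM (log2 fold change 2.45 ± 0.18, adjusted p = 5.9e-08). In LV their log2 fold changes were 1.46 ± 0.22 and 2.07 ± 0.29. In Otx2+/- ChP neither was called, *Mt1* being at 18.8 and 22.4 CPM against 32.5 and 25.5 CPM in wildtype, and both differed between models (adjusted p = 0.00021 and 0.0028). Astrocyte markers summed to 156 to 165 CPM in wildtype and 166 to 239 CPM in Otx2+/- pools, with 2 of 5 higher, but they did not all move alike. *Aldh1l1*, the highest of them, was at 123.4 and 110.4 against 82.9 and 108.8 CPM, and *Aqp4* was at 12.4 and 12.4 against 35.9 and 47.0 CPM. Their part in the rise of *S100b*, the one gene of the zinc list to rise in Otx2+/- ChP (adjusted p = 0.022), was not tested. *S100b* encodes a calcium and zinc binding protein of astrocytes. It was not called without Otx2+/- pool A (adjusted p = 0.083).

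Calcium pumps of the plasma membrane were among the genes that fell. Of 10 genes of calcium and proton handling tested, 3 were lower and 1 was higher in Cre-Tat 4V pools, 2 were lower in Cre-Tat LV pools and 1 was lower in Otx2+/- pools. Of all genes tested, 4.98% were lower and 5.7% higher in Cre-Tat 4V pools. The share of all genes that were lower was 1.03% in Cre-Tat LV and 1.75% in Otx2+/- pools. *Atp2b4* was at 68.7 and 61.0 CPM in vehicle and 28.1 and 33.6 CPM in Cre-Tat 4V pools (log2 fold change -1.07 ± 0.14, adjusted p = 7.2e-05), and fell in LV (-0.74 ± 0.16) and in Otx2+/- ChP (-0.70 ± 0.13). *Atp2b3* fell in both ventricles with Cre-Tat (-0.71 ± 0.16 and -0.90 ± 0.16) and differed between models (adjusted p = 0.024), and *Atp2b1* fell in 4V (-0.49 ± 0.13). The gene that rose was *Ezr*, the linker of NHERF scaffolds to actin (0.56 ± 0.15, adjusted p = 0.021). The LV calls of *Atp2b3* and *Atp2b4* were lost without either vehicle LV pool (adjusted p = 0.077 to 0.22), and the 4V call of *Ezr* without either vehicle 4V pool (adjusted p = 0.22 and 0.16). *Atp2b1* was not called without vehicle 4V pool A, vehicle 4V pool B or Cre-Tat 4V pool A (adjusted p = 0.062 to 0.20), nor *Atp2b4* in Otx2+/- ChP without wildtype pool A (adjusted p = 0.055). The difference of *Atp2b3* between models was lost without any of 6 single pools (adjusted p = 0.073 to 0.11).

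In the list of 11 regulators of chloride cotransporters, the kinase gene *Stk39* (SPAK) fell with Cre-Tat, by log2 fold changes of -0.70 ± 0.16 in LV and -0.84 ± 0.15 in 4V, and its partner *Cab39l* rose in 4V (0.50 ± 0.15, adjusted p = 0.048). The LV call of *Stk39* was lost without either vehicle LV pool (adjusted p = 0.24 and 0.18), and that of *Cab39l* without Cre-Tat 4V pool A or either vehicle 4V pool (adjusted p = 0.093 to 0.30). None of the 11 was called in Otx2+/- ChP by edgeR, where the lowest adjusted p was 0.075. Of 9 genes of magnesium handling tested in Cre-Tat 4V pools, *Cnnm2* alone was lower (-0.52 ± 0.14, adjusted p = 0.021), and it was not called without the same pools (adjusted p = 0.064 to 0.14). Of 7 genes of phosphate handling, *Kl*, the phosphate hormone coreceptor that is also among the epithelial markers, was lower in Cre-Tat 4V pools (-0.93 ± 0.17, adjusted p = 0.0016), and *Alpl* was higher in vehicle LV than in vehicle 4V pools (1.33 ± 0.14, adjusted p = 6.3e-05). Of the 5 bicarbonate and chloride carriers left out by the rule, *Slc4a2* and *Slc4a5* were lower in Cre-Tat pools of both ventricles, in LV not without any 1 of 3 pools (both vehicle pools and Cre-Tat pool A, adjusted p = 0.054 to 0.27). No gene of these lists was called in Otx2+/AA ChP by edgeR, where the lowest adjusted p was 0.14.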

How the data were processed

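RNA was measured in 14 pools and gave 22 files of counts, since the library of each conditional pool was sequenced in 2 runs. The authors deposited counts, whole numbers of reads per Ensembl transcript on mm10 without normalization, made with bcl2fastq 1.8.4, Bowtie 0.12.9, SAMtools and HTSeq 0.5.3; the strand setting is not given in the sources used here. The labels describe depletion of ribosomal RNA and strand-specific libraries, while the methods describe PolyA+ selection. Of 95533 transcripts, 82807 matched GENCODE vM21 (89.5% of counts), and the transcript with the highest summed count stood for its gene, since the test had been planned for gene counts. Both runs of a conditional pool were summed, and files were joined by library number. Among 120 pairs of files, the ratio of chi-square to degrees of freedom was 1.00 to 1.04 in the 8 pairs of equal number and at least 5.49 in the others.

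edgeR 4.0.16 (R 4.3.3) was used with filterByExpr, TMM factors and the quasi-likelihood test, fitted on the pools of each comparison over all genes, with Benjamini-Hochberg adjustment and a threshold of 0.05. Interactions used 8 pools. With 2 pools a side, exact permutation reaches no p below 0.33. CPM values are scaled over all 14 pools, and SE is that of the log2 fold change. DESeq2 1.42.0 and the other alternatives are described in the closing section. On simulated data, 69%, 94% and 88.5% of 200 genes changed by 1 on the log2 scale were recovered in the LV, 4V and Otx2+/- comparisons. Each share is for the 200 genes as a set. Recovery at the counts and spread of single members, such as *Slc24a1*, *Slc24a2* and *Slc9a2* with few counts, was not tested. P values measure the spread between pools, and whether pools came from separate litters is not stated. For the constitutive model, the methods name 4 Otx2+/GFP mice and 5 wildtype littermates, with duplicate samples per genotype. They do not state whether pools A and B were separate sets of mice. The p values of that model therefore need not cover variation between mice.

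The members and lists were chosen with earlier results of these data known. Named were members past the threshold in a comparison, the 8 highest per length and the 3 lowest p values of each interaction; other genes were named from the lists when past the threshold. 1 member is counted but not reported here. Python 3.11.15, pandas 2.3.3 and NumPy 2.4.6 were used for tables.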

Additional observations from a re-analysis of the deposited data

Results flagged for a closer look

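The response to the knockdown label differed between models for 2 members in 4V ChP, by the interaction test over 8 pools. The difference in log2 fold change, Cre-Tat minus Otx2+/-, was 2.01 for *Slc39a4* and 2.89 for *Slc24a1*. *Slc39a4* fell by 2.58 on the log2 scale in Otx2+/- pools and by 0.56 in Cre-Tat 4V pools, and its difference stayed past the threshold in all 13 alternatives run, with values between 1.68 and 2.44 and adjusted p values of up to 0.042. *Slc24a1* stayed past it in 7 of 13 alternatives, with values between 2.20 and 3.53. Strain, run and the way of manipulating *Otx2* changed together between these models and cannot be told apart. Groups of 2 pools were too small for a search for outlying pools.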

How the results depend on the processing

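The 31 calls of single members were recomputed in 398 combinations of call and alternative, of which 335 kept direction and threshold, 48 kept direction alone and 15 reversed. Every reversal, here and below, came from using the files as attached to their records, which mixes pools: log2 fold changes became, in LV, 0.52 for *Slc41a2* and 0.55 for *Slc26a7*; in 4V, 0.47 for *Slc30a4*, -0.32 for *Slc41a1*, 0.17 for *Slc30a5*, 0.088 for *Slc20a1*, 0.88 for *Slc41a2*, 0.49 for *Slc39a12*, 0.63 for *Slc26a7*, 0.23 for *Slc24a4* and 1.05 for *Slc39a4*; and between ventricles, 0.16 for *Slc9a3r1*, -0.087 for *Slc39a10*, 0.47 for *Slc9a2* and 0.50 for *Slc24a5*. Members called were then 34 in LV, 39 in 4V and 26 between ventricles, beside 44.9%, 58.8% and 32.6% of all genes. For the 25 calls of genes of the other lists, recomputed as an addition made after seeing the data, 270 of 330 combinations kept direction and threshold, 43 kept direction alone and 17 reversed: in LV to -0.68 for *Mt1*, -1.10 for *Mt2*, 0.043 for *Stk39*, 0.15 for *Atp2b3*, 0.50 for *Atp2b4* and 0.11 for *Slc4a2*; and in 4V to -0.081 for *Mt1*, -0.77 for *Mt2*, 0.063 for *Stk39*, -0.14 for *Cab39l*, 0.26 for *Cnnm2*, 0.41 for *Kl*, 0.37 for *Atp2b1*, 0.24 for *Atp2b3*, 0.68 for *Atp2b4*, -0.46 for *Ezr* and 0.37 for *Slc4a2*. Without a filter, 6 members were called in LV, 4 in Otx2+/AA and 5 in the interaction with model, beside 4.01%, 1.67% and 2.56% of all genes. With counts summed over transcripts, 0 were called in Otx2+/AA and 1 in that interaction, beside 0.146% and 1.04% of all genes. With all pools of the run in 1 fit, 0 were called in Otx2+/AA, beside 0.121% of all genes. The causes were not tested. DESeq2, its size factors, total counts and a mean count above 10 kept each count of members called within 1.5 times where they were run.

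With the pool letter as a replicate block, 22 members were called in Cre-Tat 4V, 18 in Otx2+/- and 4 in Otx2+/AA pools, beside 21.4%, 17.4% and 3.79% of all genes, and the other counts stayed within 1.5 times. The letters are not stated to pair the pools, and same-letter deviations correlated by -0.15 in LV and 0.09 to 0.38 elsewhere in the 5 comparisons; a crossed pairing, added after seeing the data, gave 10 in LV, beside 6.75% of all genes. Leaving out 1 pool at a time gave 3 to 7 members in LV, 5 to 12 in Cre-Tat 4V, 5 to 9 in Otx2+/-, 1 to 3 in Otx2+/AA, 4 to 10 between ventricles and 1 to 2 in the interaction with model. The share of all genes called varied as well in each of these comparisons, so the ranges alone do not single out the members. A group left with 1 pool was assumed to vary like the others. No alternative called a member in the interaction with ventricle. Members with few counts, such as *Slc24a1* and *Slc9a2*, are limited by depth, and all by 2 pools a group.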
